A study of Mus musculus with 18 samples.

Results

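The genes described here are 5 inhibitors of cyclin-dependent kinases (CDKs), Cdkn1a, Cdkn1b, Cdkn2a, Cdkn2c and Cdkn2d, the 3 D-type cyclins Ccnd1, Ccnd2 and Ccnd3, and 2 further targets of p53, Mdm2 and Ccng1. They were chosen by symbol, 10 genes in all, and 9 of them were measured among the 18204 genes of the series. Cdkn2a was not analysed here. RNA sequencing covered 18 samples of J774.1, a mouse cell line with macrophage properties, in 6 groups of 3. Wildtype cells and cells with both C-terminal binding protein genes disrupted (Ctbp1/2 dKO) each received vehicle (PBS/DMSO), 1.5 mM MTOB or 0.25 mM 4-Cl-HIPP for 4 h. The disruption was made with Cas9 and pairs of guides, and clones grown out of single cells were selected as wildtype or knockout, with the number of clones behind each genotype not given in the sources used here, so genotype and clone cannot be told apart. Both compounds are inhibitors of CTBPs, MTOB being a keto acid and 4-Cl-HIPP a chlorinated phenyl oxime acid. Both inhibitors had a single vehicle group per genotype in common, and their doses differed. Their stocks were in different solvents, PBS for MTOB and DMSO for 4-Cl-HIPP.

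D-type cyclins bind CDK4 and CDK6, and these kinases phosphorylate the retinoblastoma protein so that cells can leave G1 and enter S phase. The CDK inhibitors oppose this step. p21 (Cdkn1a) and p27 (Cdkn1b) bind a range of cyclin-CDK complexes, whereas p18 (Cdkn2c) and p19 (Cdkn2d), of the INK4 family, bind CDK4 and CDK6. Cdkn1a, Mdm2 and Ccng1 are textbook targets of the transcription factor p53, and MDM2 is the ubiquitin ligase that keeps p53 low. CTBPs are corepressors that other proteins recruit to promoters.

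Levels are given in TPM, a measure of transcript abundance scaled to gene length and within each sample, so levels can be compared between genes, but the sequencing depth is unknown. Each sample summed to between 999766 and 999897 over the listed genes. Changes were tested with limma on log2(TPM + 1) over 16383 genes, and a gene passed the test at a Benjamini-Hochberg adjusted p below 0.05 over all of them. A fold change on this scale understates that of genes with low TPM. The methods call the samples biological triplicates and no source says that they were separate cultures, so the p-values measure the spread between these samples. All 9 members passed the filter on low values, although Ccnd2 did so with a mean normalized count of only 0.660. Of 10 macrophage markers, 9 had a value, at 6.7 to 942 TPM per gene and sample, and the 4 of 11 markers of other cell types with a value summed to at most 2.48 TPM in any sample. The targeted gene Ctbp1 had 204 to 238 TPM in wildtype and 24.4 to 25.6 TPM in dKO cells under vehicle, and Ctbp2 87.8 to 96.9 and 73.5 to 79.4 TPM, differences of -3.07 (SE 0.13, adjusted p = 1.61e-10) and -0.28 (SE 0.06, adjusted p = 0.00427, limma) on the log2 scale. These values are RNA levels. For the proteins, the paper reports that CTBP1 and CTBP2 were both lost on western blots, after frameshift and premature STOP mutations in each gene.

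Because 3 of the members are known targets of p53, the 300 bases from 250 before to 50 after each RefSeq transcript start were searched on both strands for a p53 response element, taken as 2 adjoining 10-base sites with at most 1 of 20 letters off. Of 32851 such windows in the mouse genome, 29 (0.0883%) held one. Windows were at hand for 8 members, 12 in all, and an element was found in 1 window of Cdkn1a and in that of Ccng1. The other window of Cdkn1a, at a transcript start further downstream, held none. Both are shown on the gene's own strand, 5′ to 3′, with the element in capitals and credited to RefSeq (GRCm38.p6). Each was placed on GRCm39 by a single exact match, at chr17:29309862-29309931 on the plus strand for Cdkn1a and chr11:40646279-40646348 on the minus strand for Ccng1.
Cdkn1a: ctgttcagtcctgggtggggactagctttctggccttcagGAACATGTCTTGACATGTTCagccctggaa
Ccng1: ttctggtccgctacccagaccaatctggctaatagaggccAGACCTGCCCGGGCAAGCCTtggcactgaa
In the Cdkn1a stretch the element lies 14 bases before the first base of the gene in the Gencode annotation, upstream of its first exon, and in the Ccng1 stretch 140 bases before it. A single 10-base site, which 8.36% of all windows held, was also found in the windows of Mdm2 and Cdkn2d. A pair of letter strings linked to factors that recruit CTBPs or respond to metabolic stress were searched as well. CACCTG, the E-box that ZEB factors bind, occurred in 20.2% of all windows and among the members in 1 window of Cdkn1a. TGACNNNGC, the core of the antioxidant response element, occurred in 12.4% of all windows and in those of Cdkn1a, Cdkn1b, Cdkn2a and Ccnd3. A match describes these letters only, and bases outside the windows were not searched.

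Ccnd1 was the most abundant member by far. Over the 6 groups its mean was 182 to 356 TPM. Cdkn1a followed with means of 58.2 to 122 TPM, Mdm2 with 70.0 to 92.1 TPM and Ccnd3 with 75.9 to 88.4 TPM. Ccng1 (31.5 to 43.3 TPM), Cdkn2d (27.3 to 39.5 TPM), Cdkn1b (23.4 to 28.3 TPM) and Cdkn2c (17.1 to 27.7 TPM) were lower. Ccnd2 was listed at 0 in most samples and reached at most 0.459 TPM, so it is given without a fold change. How far the groups accounted for the spread of log2(TPM + 1) over the 18 samples differed between members. The 6 groups held 98.3% of it for Ccnd1, 93.5% for Cdkn1a and 91.6% for Ccng1, 83.8% for Cdkn2c, 78.8% for Cdkn2d, 68.2% for Mdm2, 52.7% for Ccnd3, 49.2% for Cdkn1b and 18.2% for Ccnd2, and the median over all genes tested was 43.3%. Genotype alone held 58.8% for Ccnd1, 63.7% for Ccng1, 61.8% for Cdkn2d and 52.3% for Cdkn2c, whereas treatment held the larger share for Cdkn1a, at 61.6% against 31.1% for genotype.

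**Figure D1:**
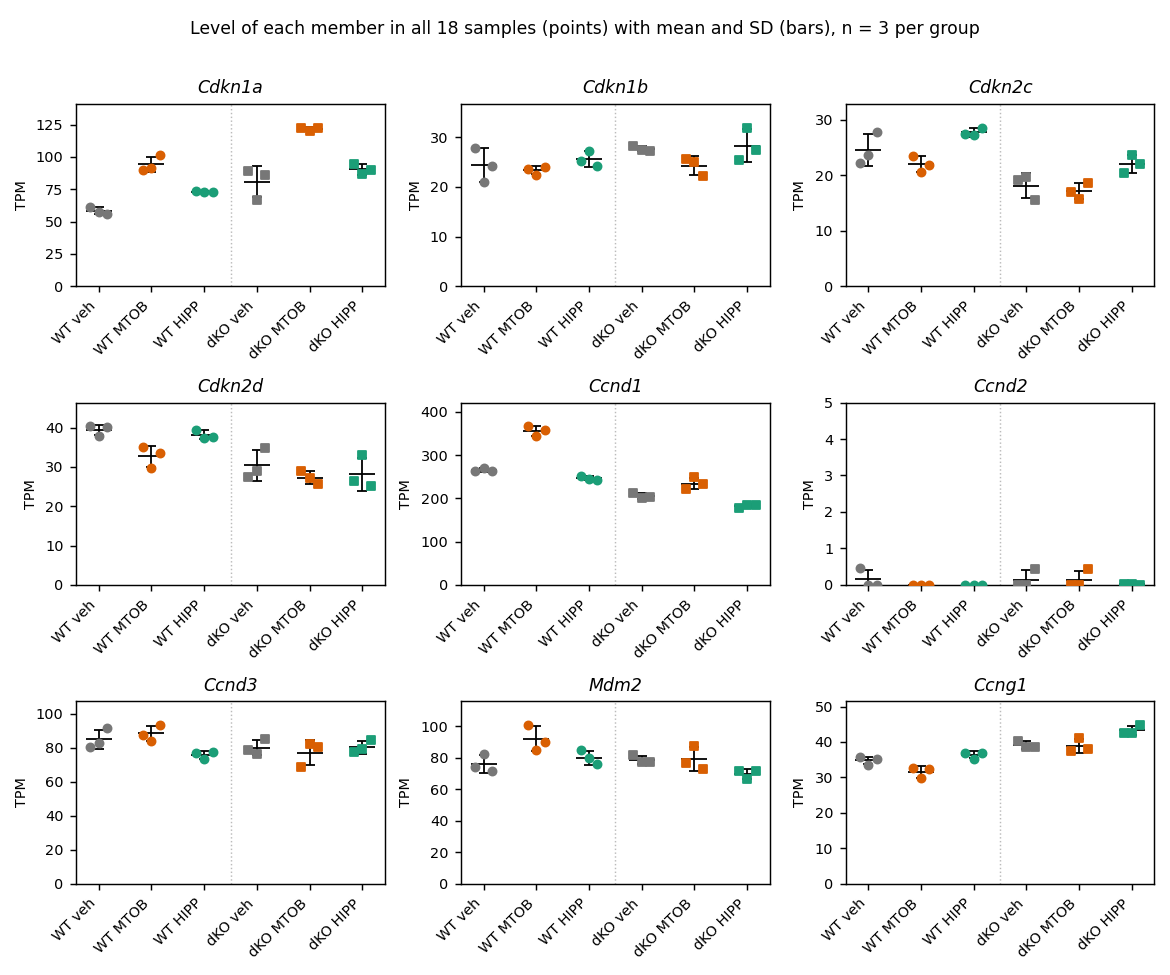
TPM of the 9 measured members in each of the 18 samples (points, circles for wildtype and squares for dKO, grey for vehicle (veh), orange for MTOB and green for 4-Cl-HIPP (HIPP)), with the mean and SD of each group of 3 as bars. Each panel has its own axis from 0. In Cdkn1a the MTOB groups are highest within each genotype, in Ccnd1 the wildtype MTOB samples (344 to 366 TPM) stand above all others, and in Ccng1 all dKO samples lie above all wildtype samples.

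With MTOB, Cdkn1a, Ccnd1 and Mdm2 rose in wildtype cells, Cdkn1a by 61.8% of its mean TPM, Ccnd1 by 34.2% and Mdm2 by 20.9%. These were 3 of 9 members, all higher, where 7.26% of all genes tested passed in this comparison. Cdkn1a also exceeded 1.5-fold, as 2.01% of all genes did while passing the test. The median log2 fold change of the members was -0.05, against -0.01 over all genes.

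Cdkn1a, which encodes p21, had 61.1, 57.7 and 55.8 TPM with vehicle and 89.7, 91.6 and 101 TPM with MTOB in wildtype cells. The groups were far apart, and the vehicle samples were the lowest of all 18. The gene rose by 0.68 on the log2 scale (SE 0.08, adjusted p = 6.52e-05, limma). Ccnd1, the D cyclin that growth factors induce, had 263, 270.1 and 262 TPM with vehicle and 366, 344 and 357 TPM with MTOB. Here too every MTOB sample lay above every vehicle sample, and the gene rose by 0.42 on the log2 scale (SE 0.04, adjusted p = 4.91e-06, limma). Both passed under all 8 other settings and whichever of the 18 samples was left out.

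Ccnd1 shares 2315 of its 4783 exonic bases (48.4%) with LTO1, a gene on the opposite strand, and the library was not stranded, so reads from the stretch in common cannot be assigned by strand. LTO1 had 17.1 ± 2.09 TPM (SD, n = 3) with vehicle and 9.38 ± 0.761 TPM (SD, n = 3) with MTOB in wildtype cells, and it fell by 0.80 on the log2 scale (SE 0.21, adjusted p = 0.03, limma). In dKO cells it had 17.5 ± 3.92 and 10.3 ± 2.56 TPM (SD, n = 3), with -0.72 (SE 0.21, adjusted p = 0.0548, limma). The values of LTO1 thus lay on the other side of vehicle from those of Ccnd1, at a far lower level, and the part of the overlap in either was not tested. Between genotypes LTO1 differed by -0.03 to 0.10, with adjusted p-values of 0.857 or more (limma).

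Mdm2 had 74.2, 82.5 and 71.8 TPM with vehicle and 101, 85.2 and 90.4 TPM with MTOB in wildtype cells. The groups did not overlap, but the highest vehicle sample and the lowest MTOB sample were close. The log2 fold change was 0.27 (SE 0.08, adjusted p = 0.0445, limma), and the call was among the weakest: it was lost in 10 of the 18 fits that left out 1 sample, for example at 0.20 (adjusted p = 0.186) without wildtype MTOB replicate 1 and at 0.23 (adjusted p = 0.167) without wildtype vehicle replicate 3. It was also lost with no filter on low values (adjusted p = 0.0503), without the variance trend (adjusted p = 0.0738) and with the compared groups alone (adjusted p = 0.173, limma). Ccng1, the third p53 target among the members, encodes a cyclin that p53 induces and had 35.7, 33.6 and 35.1 TPM with vehicle and 32.6, 29.7 and 32.3 TPM with MTOB. These groups did not overlap either, with MTOB on the low side, but the difference did not pass the test (-0.14, SE 0.05, adjusted p = 0.13, limma).

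Cdkn2d had 40.3, 37.9 and 40.1 TPM with vehicle and 35.0, 29.7 and 33.5 TPM with MTOB in wildtype cells. All MTOB samples were below all vehicle samples, but the difference of -0.27 (SE 0.10, adjusted p = 0.165, limma) did not pass. Cdkn1b, Cdkn2c and Ccnd3 overlapped between MTOB and vehicle, with log2 differences of -0.05, -0.15 and 0.06 and 95% intervals of -0.26 to 0.16, -0.36 to 0.07 and -0.09 to 0.21.

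In dKO cells Cdkn1a and Ccnd1 also rose with MTOB, Cdkn1a by 51.0% of its mean TPM and Ccnd1 by 13.8%. These 2 of 9 members passed where 6.58% of all genes did, and Cdkn1a also exceeded 1.5-fold, as 1.63% of all genes did. The median of the members was -0.01, the same as over all genes.

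Cdkn1a had 89.1, 67.0 and 86.0 TPM with vehicle and 122, 120.4 and 123 TPM with MTOB in dKO cells. The MTOB samples were close together and the highest of all 18, whereas vehicle replicate 2 lay well below the others. The log2 fold change was 0.60 (SE 0.08, adjusted p = 0.000287, limma), and 0.47 without that vehicle sample. Ccnd1 had 213, 202 and 202 TPM with vehicle and 222, 249 and 232 TPM with MTOB, again without overlap but with a narrow gap between the groups. Its log2 fold change was 0.18 (SE 0.04, adjusted p = 0.00963, limma). In a fit of the compared groups alone neither gene passed (adjusted p = 0.0765 and 0.169, limma).

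Mdm2 had 81.7, 77.0 and 77.1 TPM with vehicle and 77.0, 87.6 and 73.0 TPM with MTOB in dKO cells, and the groups overlapped, with a difference of 0.01 (SE 0.08, adjusted p = 0.995, limma). Ccng1 likewise overlapped, at 40.4, 38.5 and 38.5 TPM with vehicle and 37.5, 41.1 and 38.0 TPM with MTOB. Cdkn1b, which did not pass, had 27.3 to 28.3 TPM with vehicle and 22.1 to 25.7 TPM with MTOB, a difference of -0.18 (SE 0.10, adjusted p = 0.334, limma). Cdkn2c, Cdkn2d and Ccnd3 overlapped between the groups, with differences of -0.08, -0.15 and -0.06.

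Whether the MTOB effect itself differed between genotypes was tested as the difference of both log2 fold changes, wildtype minus dKO. None of 9 members passed, where 0.0916% of all genes did, and 2 had an unadjusted p below 0.05, as had 6.89% of all genes. Ccnd1 had the largest difference relative to its error, 0.24 (SE 0.06, 95% interval 0.12 to 0.36, adjusted p = 0.19, limma), and its adjusted p stayed between 0.0625 and 0.487 under all alternatives. Mdm2 had 0.26 (95% interval 0.03 to 0.49, adjusted p = 0.68, limma). For Cdkn1a the difference was 0.09 with an interval from -0.16 to 0.33 (adjusted p = 0.947, limma), which leaves room for an effect in dKO cells that is smaller or somewhat larger.

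With 4-Cl-HIPP none of 9 members passed in wildtype cells, where 0.366% of all genes did, and 3 had an unadjusted p below 0.05, as had 8.19% of all genes. In dKO cells none passed either, where 0.501% of all genes did, and 4 had an unadjusted p below 0.05, as had 8.47% of all genes. The values nearest to a call belonged to Cdkn1a in wildtype and Ccnd1 in dKO cells.

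In wildtype cells Cdkn1a had 73.8, 72.9 and 72.8 TPM with 4-Cl-HIPP, tightly grouped and above all vehicle samples (55.8 to 61.1 TPM). The log2 difference was 0.33 (SE 0.08, 95% interval 0.15 to 0.50, adjusted p = 0.144, limma), and it passed (adjusted p = 0.0119) only in the fit without dKO vehicle replicate 2, a sample outside this comparison that enters the estimate of the spread. Ccnd1 had 253, 244 and 244 TPM, all below the vehicle samples (262 to 270.1 TPM), with a difference of -0.10 (SE 0.04, adjusted p = 0.487, limma). Ccnd3, the D cyclin most used in lymphoid cells, had 73.2 to 77.4 TPM with 4-Cl-HIPP and 80.7 to 91.4 TPM with vehicle (-0.16, SE 0.07, adjusted p = 0.572, limma). Mdm2 had 84.8, 79.6 and 76.0 TPM with 4-Cl-HIPP and Ccng1 37.0, 35.3 and 37.0 TPM, both overlapping with vehicle.

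In dKO cells Ccnd1 had 177, 185 and 185 TPM with 4-Cl-HIPP, the lowest values of the gene in the series and below all vehicle samples of the same genotype. The difference was -0.17 (SE 0.04, adjusted p = 0.0735, limma). It passed with samples centred on their medians (-0.19, adjusted p = 0.0287) and without dKO MTOB replicate 1 (adjusted p = 0.0362) or replicate 2 (adjusted p = 0.0347), which are not part of this comparison. Cdkn1a had 94.7, 86.9 and 89.6 TPM, overlapping with vehicle (0.17, SE 0.08, adjusted p = 0.602, limma). Mdm2 had 71.8, 66.3 and 71.8 TPM, all below vehicle (-0.17, SE 0.08, adjusted p = 0.571, limma), and Ccng1 42.6, 42.6 and 44.7 TPM, all above it (0.14, SE 0.05, adjusted p = 0.376, limma). Cdkn2c had 20.4 to 23.6 TPM against 15.5 to 19.8 TPM with vehicle (0.27, SE 0.10, adjusted p = 0.436, limma).

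The difference in 4-Cl-HIPP effect between genotypes passed for 0 of 9 members and for 0% of all genes tested (limma), where 734 genes and 1 member, Mdm2, had an unadjusted p below 0.05. For Mdm2 it was 0.24 (95% interval 0.01 to 0.47, adjusted p = 1, limma). MTOB and 4-Cl-HIPP were given at different doses, from stocks in different solvents, and measured against the same vehicle samples. Their effects are therefore set side by side and not compared. In wildtype cells Cdkn1a differed from vehicle by 0.68 with MTOB and 0.33 with 4-Cl-HIPP, Ccnd1 by 0.42 and -0.10, and Mdm2 by 0.27 and 0.07. In dKO cells these values were 0.60 and 0.17, 0.18 and -0.17, and 0.01 and -0.17.

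**Figure D2:**
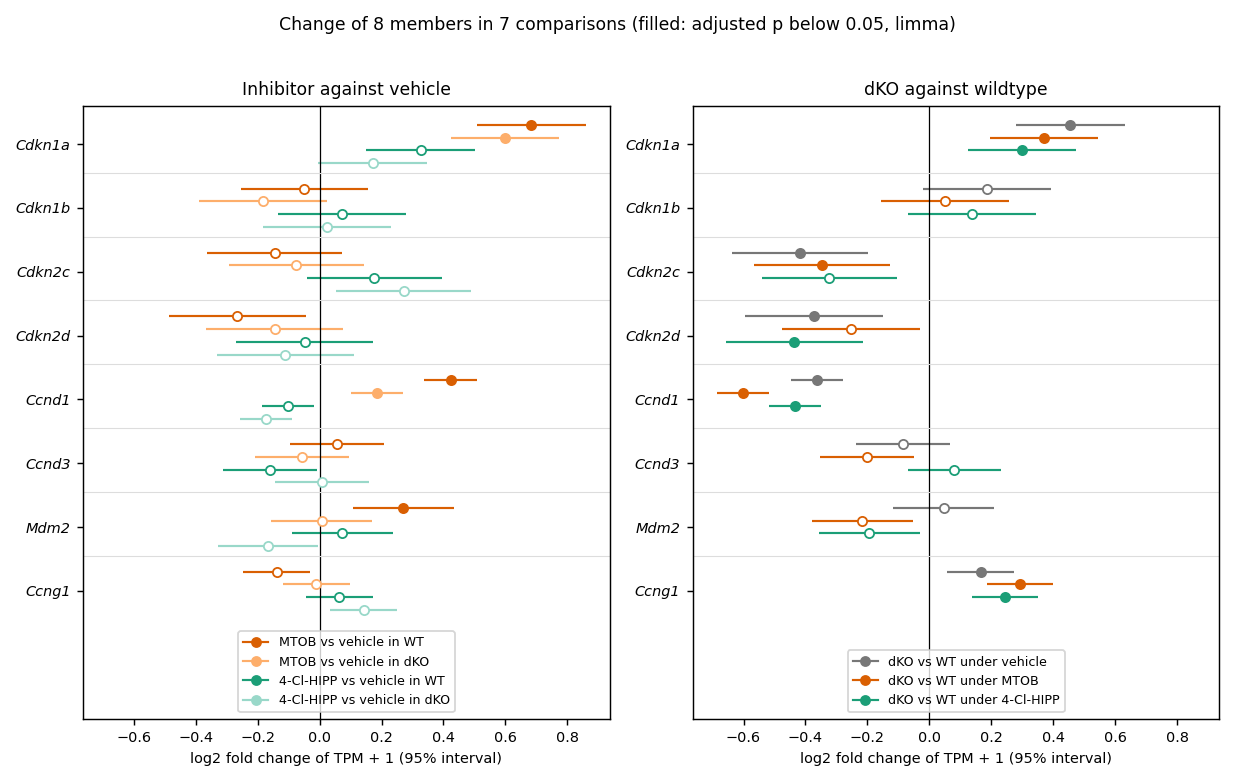
Log2 fold change of TPM + 1 with its 95% interval (limma) for 8 members, in the 4 comparisons of an inhibitor with vehicle (left) and the 3 comparisons of dKO with wildtype cells (right). Filled points passed the test at an adjusted p below 0.05 over all genes. Cdkn1a and Ccnd1 are filled for MTOB in both genotypes, no point is filled for 4-Cl-HIPP, and Cdkn1a, Ccnd1 and Ccng1 are filled in all 3 genotype comparisons.

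Under vehicle 5 of 9 members passed between genotypes, where 10.7% of all genes did: Cdkn1a and Ccng1 were higher in dKO cells and Cdkn2c, Cdkn2d and Ccnd1 lower. None of the members exceeded 1.5-fold while passing, where 4.83% of all genes did. With MTOB in both genotypes 4 of 9 passed (11.2% of all genes), and Ccnd1 exceeded 1.5-fold, as 4.95% of all genes did. With 4-Cl-HIPP 4 of 9 passed (10.2% of all genes) and none of them by more than 1.5-fold (4.72% of all genes). The 3 genotype comparisons rest on separate samples, but all of them compare the same lines. Among all genes that passed, the share higher in dKO cells was 65.3% under vehicle, 62.5% with MTOB and 64.5% with 4-Cl-HIPP, and 53.8%, 51.1% and 53% with samples centred on their medians.

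Cdkn1a was higher in dKO cells under every treatment. Its vehicle samples had 55.8 to 61.1 TPM in wildtype and 67.0 to 89.1 TPM in dKO cells, and the groups did not overlap under MTOB (89.7 to 101 against 120.4 to 123 TPM) or 4-Cl-HIPP (72.8 to 73.8 against 86.9 to 94.7 TPM). The log2 differences were 0.46 (adjusted p = 0.00139), 0.37 (adjusted p = 0.00694) and 0.30 (adjusted p = 0.0279) under vehicle, MTOB and 4-Cl-HIPP, each with SE 0.08 (limma). Without dKO vehicle replicate 2 the first was 0.58. The last was lost with median centring (0.26, adjusted p = 0.0644) and when any 1 of wildtype 4-Cl-HIPP replicates 1 to 3 or dKO 4-Cl-HIPP replicates 1 and 3 was left out (adjusted p = 0.0668 to 0.111, limma).

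Ccnd1 was lower in dKO cells under every treatment, by 22.3% of the wildtype mean under vehicle, 34.1% under MTOB and 26.1% under 4-Cl-HIPP. No dKO sample reached a wildtype sample of the same treatment. The log2 differences were -0.36 (adjusted p = 1.1e-05), -0.60 (adjusted p = 4.12e-08) and -0.43 (adjusted p = 1.71e-06), each with SE 0.04 (limma), and all 3 passed under every alternative. In the order of the group means dKO 4-Cl-HIPP (182 TPM) was lowest, followed by dKO vehicle (206 TPM), dKO MTOB (234 TPM), wildtype 4-Cl-HIPP (247 TPM), wildtype vehicle (265 TPM) and wildtype MTOB (356 TPM). Of these neighbours only dKO MTOB and wildtype 4-Cl-HIPP overlapped.

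Ccng1 was higher in dKO cells, and its 9 dKO samples (37.5 to 44.7 TPM) all lay above its 9 wildtype samples (29.7 to 37.0 TPM). The log2 differences were 0.17 (adjusted p = 0.0482) under vehicle, 0.29 (adjusted p = 0.000916) under MTOB and 0.24 (adjusted p = 0.00432) under 4-Cl-HIPP, each with SE 0.05 (limma). The first was at the edge of the threshold and was lost in 7 of 8 alternative fits and in 15 of the 18 fits without 1 sample (adjusted p of 0.0355 to 0.166). The second was lost when the compared groups were fitted alone (adjusted p = 0.0528, limma). Mdm2 had 71.8 to 82.5 TPM in wildtype and 77.0 to 81.7 TPM in dKO cells under vehicle, which overlapped (0.05, SE 0.08, adjusted p = 0.82, limma). Its mean was lower in dKO cells under MTOB (-0.22, adjusted p = 0.0902) and 4-Cl-HIPP (-0.19, adjusted p = 0.145), neither of which passed (limma). The genotypes overlapped under MTOB (85.2 to 101 TPM in wildtype and 73.0 to 87.6 TPM in dKO cells) but not under 4-Cl-HIPP. Under MTOB Mdm2 passed with median centring (-0.25, adjusted p = 0.0431) and without dKO MTOB replicate 2 (-0.29, adjusted p = 0.026, limma).

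Of the INK4 genes measured, Cdkn2c passed as lower in dKO cells under vehicle and MTOB, and Cdkn2d under vehicle and 4-Cl-HIPP. Cdkn2c had 22.2, 23.6 and 27.8 TPM in wildtype and 19.1, 19.8 and 15.5 TPM in dKO cells under vehicle. With MTOB it had 23.5, 20.6 and 21.9 TPM in wildtype and 16.9, 15.7 and 18.6 TPM in dKO cells. With 4-Cl-HIPP it had 27.4, 27.2 and 28.6 TPM in wildtype and 20.4, 23.6 and 22.0 TPM in dKO cells. The genotypes did not overlap under any treatment. The log2 differences were -0.42 (adjusted p = 0.0141), -0.35 (adjusted p = 0.0403) and -0.32 (adjusted p = 0.0615), each with SE 0.10 (limma), so that the last did not pass. The first did not pass once replicate 3 of the wildtype vehicle group (-0.33, adjusted p = 0.0774) or of the dKO vehicle group (-0.31, adjusted p = 0.078) was left out, and the second without any of several samples, at adjusted p-values up to 0.147 (without wildtype MTOB replicate 1, limma).

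Cdkn2d had 27.5, 28.9 and 34.8 TPM in dKO cells under vehicle, all below the wildtype samples (37.9 to 40.3 TPM). It had 29.0, 27.1 and 25.7 TPM in dKO cells with MTOB, against 29.7 to 35.0 TPM in wildtype, and 26.3, 33.0 and 25.1 TPM with 4-Cl-HIPP, against 37.3 to 39.4 TPM. The genotypes were again apart under every treatment, most narrowly with MTOB. The differences were -0.37 (adjusted p = 0.0301), -0.25 (adjusted p = 0.155) and -0.44 (adjusted p = 0.0117), each with SE 0.10 (limma), of which the MTOB value did not pass. The vehicle call was lost without any of wildtype vehicle replicates 1 to 3 or dKO vehicle replicates 1 and 2 (adjusted p = 0.053 to 0.132), and the 4-Cl-HIPP call when replicate 1 (adjusted p = 0.056) or replicate 3 (adjusted p = 0.0642, limma) of the dKO 4-Cl-HIPP group was left out. Cdkn1b and Ccnd3 passed in no genotype comparison, with differences of 0.05 to 0.19 for Cdkn1b and -0.20 to 0.08 for Ccnd3. Ccnd3 had its lowest adjusted p with MTOB (0.0917, limma), where it passed with median centring (-0.24, adjusted p = 0.0225).

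Fitted on the compared groups alone, Ccnd1 was the one member to pass under vehicle (Cdkn1a adjusted p = 0.0881, Cdkn2c 0.132, Cdkn2d 0.0935, Ccng1 0.0704, limma), while Cdkn1a and Ccnd1 passed with MTOB, where Cdkn2c had an adjusted p of 0.0941. With 4-Cl-HIPP, Cdkn2d then missed the threshold (adjusted p = 0.0899, limma). The shifts in individual genes changed the make-up of both families. Of the summed TPM of the D cyclins, Ccnd1 made up 75.7 ± 1.3% in wildtype and 72.0 ± 1.4% in dKO cells with vehicle, and 80.1 ± 0.725% and 75.3 ± 1.10% with MTOB (SD, n = 3). The sum itself was 350 ± 5.55 TPM in wildtype and 286 ± 7.26 TPM in dKO cells with vehicle, 444 ± 14.2 and 311 ± 20.3 TPM with MTOB, and 323 ± 6.23 and 263 ± 8.09 TPM with 4-Cl-HIPP. The wildtype sum was the larger under each treatment. Of the summed TPM of the 4 measured CDK inhibitors, Cdkn1a made up 39.7 ± 1.78% in wildtype and 51.2 ± 3.93% in dKO cells with vehicle, and 54.7 ± 2.15% and 64.0 ± 0.884% with MTOB (SD, n = 3). Their sum was 147 ± 5.78 and 157 ± 12 TPM with vehicle and 172 ± 8.15 and 191 ± 3.03 TPM with MTOB. These shares describe the values above and were not tested.

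**Figure D3:**
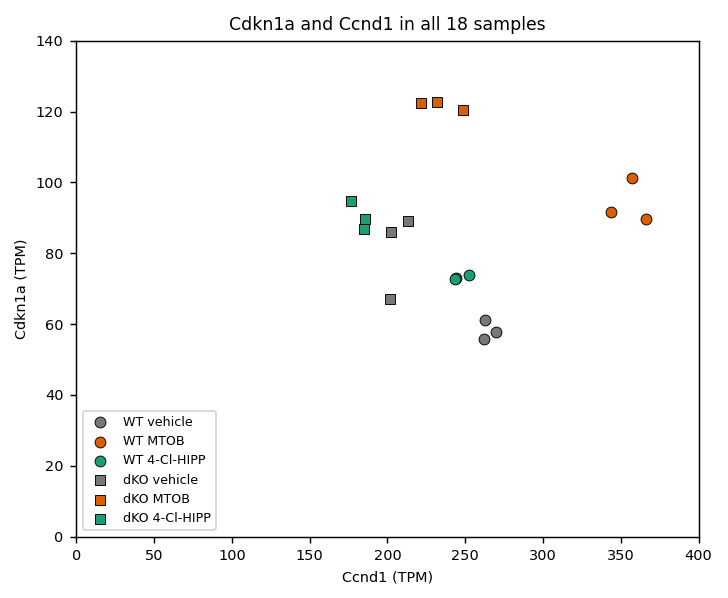
Cdkn1a (y axis) against Ccnd1 (x axis) in TPM for all 18 samples, circles for wildtype and squares for dKO, coloured by treatment. Within each genotype the MTOB samples lie above and to the right of the vehicle samples, and at each treatment the dKO samples lie above and to the left of the wildtype samples.

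For the 3 members whose groups held the largest share of variance, the genes with the most similar log2(TPM + 1) over the 18 samples were sought among 9286 candidates whose mean normalized count was 50 or more. For Ccnd1 these were Rbpj, the DNA-binding partner of Notch (Pearson r 0.973), Hmga2, a chromatin protein (0.965), and Cd14, a coreceptor for lipopolysaccharide (0.957). For Cdkn1a they were Pdcd1, the receptor PD-1 (0.960), Gsap (0.945) and the MHC class I gene H2-Q6 (0.941). For Ccng1 they were Sla (0.943), the fatty acid desaturase gene Fads2 (0.936) and Scarb2 (0.936). Samples of a group share genotype and treatment, so these values describe group patterns and carry no p.

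Other p53 targets were listed to set Cdkn1a in its pathway. Of 27 tested (30 listed), 1 rose and 2 fell with MTOB in wildtype cells, where 7.26% of all genes passed, and 3 rose and 2 fell in dKO cells, where 6.58% did, with medians of 0.03 and 0.15 against -0.01 over all genes in both. Susd6 rose in wildtype (0.40, SE 0.07, adjusted p = 0.00104, limma) and dKO cells (0.54, adjusted p = 9.31e-05), and Pmaip1, which encodes the proapoptotic protein NOXA, in dKO cells (0.47, SE 0.11, adjusted p = 0.0143). Sesn1, a stress-induced inhibitor of TORC1 signalling, fell by 0.35 on the log2 scale in both genotypes (SE 0.07, adjusted p = 0.00407 and 0.00435), as did the spindle-associated gene Ckap2, by 0.30 and 0.39 (SE 0.08, adjusted p = 0.0383 and 0.00896, limma). With 4-Cl-HIPP none of the 27 passed in either genotype (limma), and 1 had an unadjusted p below 0.05 in each.

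Between genotypes, 2 of the 27 were higher and 2 lower in dKO cells under vehicle, 4 and 2 under MTOB and 2 and 2 under 4-Cl-HIPP, where 10.7%, 11.2% and 10.2% of all genes passed. Pmaip1 was higher under all 3 treatments, by 0.62, 0.91 and 0.50 (SE 0.11, adjusted p = 0.00103, 2.68e-05 and 0.0057, limma). Bax, which permeabilises mitochondria in apoptosis, was lower by 0.27, 0.17 and 0.30 in the same order, and the death receptor gene Tnfrsf10b by 0.95 and 0.74 under vehicle and 4-Cl-HIPP. Xpc, a DNA damage sensor, was higher by 0.33 and 0.31 in these 2 comparisons. Under MTOB Polk, a polymerase that copies damaged DNA, was higher by 0.41 and Susd6 by 0.27, and Ckap2 was lower by 0.32. All of these passed the test (adjusted p of 0.0329 or less, limma). Trp53 itself, the gene of p53, differed by -0.06 with MTOB in wildtype (SE 0.04, adjusted p = 0.449) and by -0.04 between genotypes under vehicle (adjusted p = 0.652, limma). Of 5 tested genes of the p53 circuit, Usp7 fell with MTOB in dKO cells (-0.24, adjusted p = 0.000686) and the ligase gene Rchy1 was lower in dKO cells under vehicle (-0.34, adjusted p = 0.02, limma). Each was the only 1 of the 5 to pass in its comparison, where 6.58% and 10.7% of all genes passed.

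Of 14 partners of the members in G1, 1 rose and 1 fell with MTOB in each genotype, where 7.26% and 6.58% of all genes passed in wildtype and dKO cells. Cdk6, a kinase partner of the D cyclins, rose in wildtype cells (0.91, SE 0.18, adjusted p = 0.00464), and Ccne1, cyclin E1, in dKO cells (0.39, SE 0.10, adjusted p = 0.0249, limma). Without passing, their means also lay higher with MTOB in the other genotype. These were 45.8 against 34.0 TPM for Cdk6 in dKO cells and 38.8 against 31.2 TPM for Ccne1 in wildtype cells. None of the 14 passed the test of the difference between genotypes in MTOB effect (limma). Rbl2, the pocket protein p130, fell in both, by 0.48 and 0.56 (SE 0.09, adjusted p = 0.00408 and 0.00147, limma). In dKO cells E2f5 was lower and Cdk2 higher under vehicle (-0.36 and 0.29) and 4-Cl-HIPP (-0.40 and 0.32), Rbl1 was higher under vehicle (0.22) and Rb1 under MTOB (0.39), each at an adjusted p of at most 0.048 (limma). Of 9 genes for the turnover of p27 and cyclin D, Cks1b fell with MTOB in wildtype cells (-0.28, SE 0.06, adjusted p = 0.00466, limma) and no other passed in any comparison. With MTOB in wildtype cells 7.26% of all genes passed.

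Of 16 tested genes of S phase and mitosis, 8 fell and none rose with MTOB in wildtype cells and 11 fell and none rose in dKO cells, where 7.26% and 6.58% of all genes passed in either direction, with medians of -0.17 and -0.23. Pcna and Mcm2 to Mcm7, which act in DNA replication, did not pass in wildtype cells, with values from 0.04 for Mcm3 to -0.16 for Mcm7 (adjusted p = 0.0523, limma). Mcm4, Mcm5, Mcm6 and Mcm7 fell in dKO cells, and none of them passed the test of the difference between genotypes in MTOB effect (limma). The proliferation marker Mki67 fell by 0.49 (SE 0.09, adjusted p = 0.00276) and 0.58 (adjusted p = 0.000785), and Ccna2, cyclin A2, by 0.32 (SE 0.03, adjusted p = 2.75e-05) and 0.38 (adjusted p = 4.35e-06, limma). Summed over the 16 genes, wildtype samples held 3191 to 3273 TPM with vehicle and 2820 to 2913 TPM with MTOB, and dKO samples 3198 to 3211 and 2719 to 2786 TPM. With 4-Cl-HIPP none passed (limma; 1 and 2 had an unadjusted p below 0.05), and the sums were 3188 to 3258 and 3188 to 3230 TPM. Within each genotype the MTOB samples thus held the lower sums and the higher Cdkn1a values. Under MTOB the dKO samples likewise held lower sums than the wildtype samples, with means of 2762 and 2872 TPM. Their Cdkn1a values were higher, with means of 121.9 and 94.2 TPM. With vehicle and with 4-Cl-HIPP the sums overlapped between genotypes. Cdkn1a had means of 58.2 TPM in wildtype and 80.7 TPM in dKO cells with vehicle, where the mean sums were 3222 and 3205 TPM. With 4-Cl-HIPP it had 73.2 and 90.4 TPM, where the mean sums were 3226 and 3215 TPM. Similar sums can hide opposite differences of single genes. With vehicle, Mcm6 was higher in dKO than in wildtype cells (means of 244 and 200 TPM) and Top2a lower (286 and 328 TPM). In bulk RNA a smaller share of cells in a phase and less RNA per cell cannot be told apart, and the part of either in the member values was not tested.

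Between genotypes 3 of these genes were higher and 5 lower in dKO cells under vehicle, and 2 and 4 under each inhibitor, against the shares of all genes given above. The replication licensing gene Mcm6 was higher under vehicle, MTOB and 4-Cl-HIPP (0.29, 0.16 and 0.30), and the topoisomerase gene Top2a lower (-0.20, -0.22 and -0.24), each at an adjusted p of at most 0.0104 (limma). Next to Cdkn2a on chromosome 4, 2 of 4 listed genes had a value. Klhl9 fell with MTOB by 0.23 in wildtype (SE 0.06, adjusted p = 0.0237) and 0.21 in dKO cells (adjusted p = 0.0386, limma), while Mtap passed in no comparison. With MTOB 7.26% of all genes passed in wildtype and 6.58% in dKO cells.

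**Figure D4:**
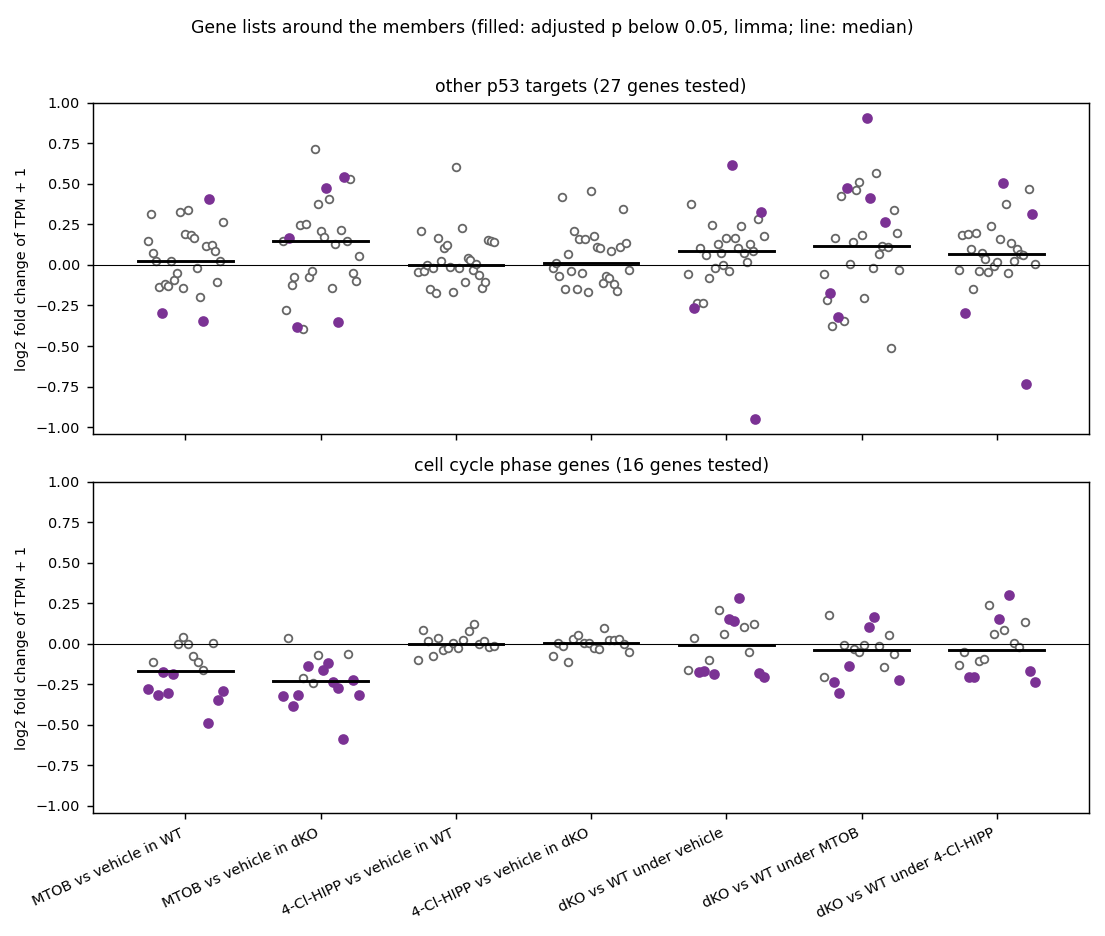
Log2 fold change of TPM + 1 of 27 other p53 targets (top) and 16 cell cycle phase genes (bottom) in 7 comparisons. Each point is a gene, filled where the adjusted p was below 0.05 (limma), and the line is the median. The cell cycle genes lie mostly below 0 with MTOB, with medians of -0.17 and -0.23, whereas the p53 targets spread to both sides.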

How the data were processed

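Genotype and treatment in the labels gave 6 groups of 3 among the 18 samples. According to the methods and the submitters' processing notes, the authors quantified unstranded reads with Salmon 1.9.0 on GRCm39 (Gencode M28) with GC correction and summarised them per gene. The labels name polyA RNA and the methods rRNA depletion. The authors deposited a scaled TPM per gene and sample. The authors also deposited 1 signal value per gene, an average of normalized counts from DESeq2 1.44.0, used here for the filter and the variance trend. The log2 fold changes and the adjusted p-values that the authors deposited for 4 comparisons were not used. Raw counts were not analysed here, so depth is unknown.

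Genes whose mean normalized count exceeded the 10th percentile (0.222), 16383 in number, entered a model of log2(TPM + 1) with 6 group means over all samples (limma 3.58.1 in R 4.3.3), in which the variance prior followed the log2 of that count, with Benjamini-Hochberg adjustment over all genes of each comparison. The procedure was tested on simulated data. Between replicates Pearson r across genes was 0.983 to 0.987. The members and the gene lists were chosen with earlier results of these data known. All members are named, and list genes that passed are named up to 4 per list and comparison by the size of the change, if their mean normalized count was 10 or more. The other CDK inhibitor genes of the lists were not analysed here. Alternatives were pseudocounts of 0.1 and 0.5, no filter, a mean TPM of at least 1, only the compared groups, no variance trend, median centring, a replicate block and leaving out each sample. Promoter windows were taken from RefSeq, gene positions and overlaps from the Gencode annotation of GRCm39. Plots were made in matplotlib 3.10.9.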

Additional observations from a re-analysis of the deposited data

How the results depend on the processing

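No value that passed changed direction under any alternative. For single members, 612 values from the 8 alternative fits kept their side of the threshold, 22 lost and 5 gained a call. Without 1 sample these counts were 1403, 49 and 6. Some values near 0 that did not pass changed sign, such as Ccng1 for MTOB in dKO cells (-0.011 in the main fit, up to 0.009 in the alternative fits). With only the compared groups, 0 members passed for MTOB in dKO cells, 1 between genotypes under vehicle and 2 under MTOB, where fewer samples estimate the spread. Without the variance trend 1 passed for MTOB in dKO cells, and with median centring 1 for 4-Cl-HIPP in dKO cells, for which the cause was not tested. Leaving out 1 sample gave 2 to 3 members for MTOB in wildtype, 2 in dKO cells, 0 to 1 for 4-Cl-HIPP in either genotype, and 2 to 5, 3 to 4 and 2 to 5 between genotypes under vehicle, MTOB and 4-Cl-HIPP, and 0 for both differences of effect.

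Same-numbered samples did not deviate together (Pearson r of -0.141 to 0.0909 over 45 pairs, and 2 of 18 samples correlated best with their own number). No pairing by number was thus seen in these values, which cannot exclude that same-numbered samples were handled together. With the replicate block 3 members passed between genotypes under vehicle, where Ccng1 (adjusted p = 0.0643) and Cdkn2d (adjusted p = 0.0519) lost their calls. Under MTOB the count stayed, but Cdkn2c lost (adjusted p = 0.0636) and Ccnd3 gained a call (adjusted p = 0.0394, limma).

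Over all genes, only the compared groups gave 699 and 305 genes for MTOB in wildtype and dKO cells in place of 1189 and 1078, 24 and 9 for 4-Cl-HIPP in place of 60 and 82, and 995 between genotypes under MTOB in place of 1829. The MTOB difference between genotypes gave 6 genes without the variance trend, 8 with the replicate block and 10 with only the compared groups, in place of 15. TPM carry no depth, which limits what can be said of Ccnd2.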
